A study of Mus musculus with 2 samples.

Results

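The genes for ribosomal proteins, translation initiation factors and RNA polymerase subunits were examined for peaks of PAX7 chromatin immunoprecipitation with sequencing (ChIP-seq) in muscle stem cells. The members were the protein-coding genes of the GRCm38 gene table whose symbols begin with Rpl or Rps and a number (without the Rps6k kinases), with Eif and a number, or with Polr and a number. This gave 171 of 21887 genes on assembled chromosomes, namely 87 ribosomal protein genes, 56 initiation factor genes and 28 RNA polymerase genes. A peak was paired with a gene when its summit lay inside the gene's span, or when the gene's end was the nearest protein-coding gene end within 50 kb. Of the 2975 peaks on assembled chromosomes, 26 were paired with a member by this rule, each with a different member gene.

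The cells were muscle stem cells sorted by flow cytometry from untreated C57BL/6 mice with the genotype Pax7-YFP KI, a knock-in of yellow fluorescent protein at Pax7. Both libraries came from such cells, 1 from ChIP with an antibody against GFP (10622111 tags after filtering) and 1 from input DNA without antibody (20429667 tags). The number and age of the animals are not given in the sources used here, and ChIP from cells without the tag was not analysed here. With 1 library against 1 library no spread between replicates could be measured, so all counts and folds below are descriptions without a test. The purity of the sort and the expression of the members were not measured by these libraries.

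The ribosome is built from a small and a large subunit, and in mammals its protein genes are spread over many chromosomes and are active in nearly all cells. Initiation factors bring the small subunit, the initiator tRNA and the capped mRNA together, and the supply of active eIF2 and of the cap-binding complex sets how much protein a cell makes. RNA polymerase I transcribes the large ribosomal RNA precursor, polymerase II the mRNAs and polymerase III the 5S rRNA and tRNAs, and several of their subunits are shared. Quiescent muscle stem cells are known for low rates of RNA and protein synthesis, which rise on activation. PAX7 binds DNA through a paired domain and a homeodomain.

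Most member peaks lay just before a transcription start, so the bases before the start are shown for those with the highest folds. RefSeq promoter windows of GRCm38.p6, from 250 bases before to 50 after a listed start, were found for 133 of the 171 members, and 18 members had a summit inside such a window. In 11 of the 18 no annotated gene overlapped the 250 bases before the start, and among these the 6 below had the highest folds, as a pair from each family. Each line gives the 250 bases before the start, 5′ to 3′ on the gene's strand, and capitals mark matches to the searched motifs given further below. The windows lie at chr12:28635954-28636203 (minus strand, Rps7), chr7:24884342-24884591 (plus, Rps19, first of its 3 listed starts), chr7:108934165-108934414 (plus, Eif3f), chr15:77970825-77971074 (minus, Eif3d), chr5:136116441-136116690 (plus, Polr2j) and chr4:45018359-45018608 (plus, Polr1e).
Rps7: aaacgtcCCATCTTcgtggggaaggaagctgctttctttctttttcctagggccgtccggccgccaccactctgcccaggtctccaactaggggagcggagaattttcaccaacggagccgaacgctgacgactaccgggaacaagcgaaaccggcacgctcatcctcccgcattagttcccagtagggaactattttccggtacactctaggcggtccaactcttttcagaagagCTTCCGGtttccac
Rps19: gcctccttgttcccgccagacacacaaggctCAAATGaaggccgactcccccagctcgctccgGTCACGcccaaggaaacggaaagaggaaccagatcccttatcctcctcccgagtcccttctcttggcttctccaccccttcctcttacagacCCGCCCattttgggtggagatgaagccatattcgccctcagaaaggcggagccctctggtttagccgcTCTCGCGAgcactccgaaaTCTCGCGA
Eif3f: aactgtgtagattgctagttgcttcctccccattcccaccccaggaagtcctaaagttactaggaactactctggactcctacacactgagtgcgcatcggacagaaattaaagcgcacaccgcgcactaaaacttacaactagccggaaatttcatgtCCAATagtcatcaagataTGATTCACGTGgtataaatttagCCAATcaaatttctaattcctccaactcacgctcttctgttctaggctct
Eif3d: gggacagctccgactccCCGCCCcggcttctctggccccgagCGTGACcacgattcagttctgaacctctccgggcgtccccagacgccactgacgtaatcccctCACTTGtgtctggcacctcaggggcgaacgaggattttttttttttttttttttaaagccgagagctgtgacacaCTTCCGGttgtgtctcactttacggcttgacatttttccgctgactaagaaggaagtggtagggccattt
Polr2j: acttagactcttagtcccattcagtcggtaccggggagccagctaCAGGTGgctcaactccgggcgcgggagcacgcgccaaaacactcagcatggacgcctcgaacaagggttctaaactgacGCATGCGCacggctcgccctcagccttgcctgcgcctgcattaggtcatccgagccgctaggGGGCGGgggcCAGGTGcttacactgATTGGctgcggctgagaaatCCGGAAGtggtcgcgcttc
Polr1e: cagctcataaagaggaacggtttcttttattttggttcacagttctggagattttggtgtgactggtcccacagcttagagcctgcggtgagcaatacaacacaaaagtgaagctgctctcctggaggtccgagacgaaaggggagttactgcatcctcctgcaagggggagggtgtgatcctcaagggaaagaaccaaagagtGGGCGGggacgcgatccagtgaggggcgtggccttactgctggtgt

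Among the ribosomal protein genes 12 of 87 (13.8%) had a peak, where 9.58% of all protein-coding genes had one by the same rule. With summits inside the span alone the order turned, with 3 of 87 (3.45%) against 5.46% of all protein-coding genes, so the higher share rests on summits outside the annotated genes. Genes of the small subunit made up 7 of the 12 (7 of 34 Rps genes, 20.6%) and genes of the large subunit 5 (5 of 53 Rpl genes, 9.43%). Within 1000 bp of their own end 11 of the 87 genes had a summit (12.6%), against 4.10% of all protein-coding genes. Ribosomal protein genes are short, with a median span of 3164 bp against 17169 bp over all protein-coding genes. Their 12 peaks had folds from 4.90 to 14.7 with a median of 8.02, where the median of all 2975 peaks was 7.35.

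Rps7 (chr12:28635910-28636148), a small-subunit protein gene, had the highest fold of all members. Its summit lay 67 bp upstream of the start, with a pileup of 28 ChIP fragments over a background of 0.977, which gave a fold enrichment of 14.7. That background is the floor of the list, so it is not an input level measured at Rps7. Parentheses after a gene name give the peak in GRCm38, and whether a summit inside a gene lay in an exon or an intron was not analysed here. The 95% interval was 9.92 to 21.0, an exact Poisson interval of the pileup with the background held fixed, as for all intervals below, which cover counting error only. The peak ranked 48 by fold among the 2975 peaks and was the one ribosomal protein peak whose interval lay wholly above the median of all peaks. In the Rps7 sequence above, the summit falls in the last part of the line, between a match 243 bases before the start and one 14 bases before it.

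The other small-subunit peaks had lower folds, and their intervals all overlapped each other. Rps19 (chr7:24884229-24884608), whose human counterpart is mutated in Diamond-Blackfan anaemia, had 19 ChIP fragments at the summit, 10.1-fold (6.29 to 15.5), with the summit 204 bp upstream. Rps15a (chr7:118116157-118116348) had 16 ChIP fragments at the summit, 8.60-fold (5.13 to 13.7) at 132 bp upstream. Rps23 (chr13:90922609-90922982) had 20 fragments but a background of 1.56, so its fold was 8.20 (5.16 to 12.5), at 362 bp upstream. Rps27a (chr11:29547766-29547984), which encodes a ribosomal protein fused to ubiquitin, had 12 ChIP fragments at the summit, 6.58-fold (3.64 to 11.1) with the summit inside the gene, 129 bp from its end. The neighbouring gene Clhc1 has the nearer end to that summit. Rps24 (chr14:24490472-24490643) had the weakest peak of all members, with a pileup of 9, the lowest pileup in the whole list, and a fold of 4.90 (2.51 to 8.87) at 60 bp upstream.

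In the large subunit, the peaks of Rpl13a (chr7:45128900-45129260) and Rpl27 (chr11:101442126-101442358) had the highest folds. Rpl13a had 19 ChIP fragments at the summit, 9.80-fold (6.10 to 15.0) at 252 bp upstream, and Rpl27 18 ChIP fragments at the summit, 9.61-fold (5.90 to 14.9) at 28 bp upstream, the shortest distance of the family. Rpl38 (chr11:114668388-114668566) had 15 ChIP fragments at the summit, 7.84-fold (4.61 to 12.6). Its summit lay inside the annotated span, 645 bp from the gene's end, but 117 bp upstream of the listed start. Rpl35a (chr16:33056131-33056370), with 12 ChIP fragments at the summit, 6.58-fold (3.64 to 11.1), had its summit 226 bp upstream and inside the span of the neighbouring gene Iqcg. Rpl18 (chr7:45717862-45718090) was paired because the summit lay inside its annotated span. With a pileup of 15 over a background of 1.56 its fold was 6.25 (3.67 to 10.1). The summit lay 2518 bp inside the span but 86 bp upstream of the listed start. The end of Sphk2 was nearer to that summit than the end of Rpl18 was.

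**Figure D1:**
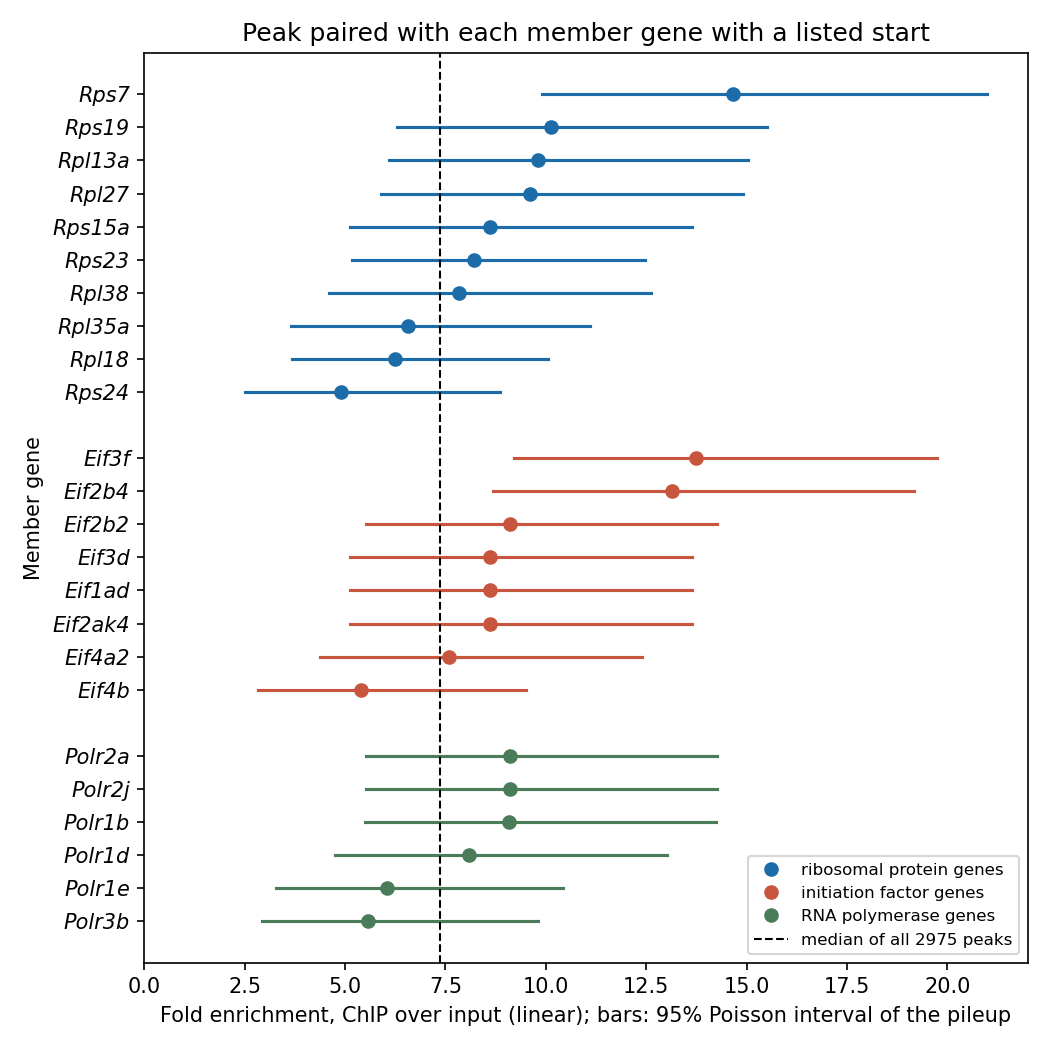
Fold enrichment of the ChIP over the input (linear axis) for the peak paired with each of the 24 member genes that had a peak and a listed start, by family, with the 95% Poisson interval of the pileup as a bar and the median of all 2975 peaks (7.35) as a dashed line. The intervals of Rps7, Eif3f and Eif2b4 lie above that line, and the other 21 cross it.

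Initiation factor genes had a peak in 8 of 56 cases (14.3%, against the 9.58% of all protein-coding genes), and 7 of the 56 (12.5%, against 4.10%) had it within 1000 bp of their own end. With summits inside the span alone the order turned here too, with 1 of 56 (1.79%) against 5.46%. Folds ran from 5.39 to 13.7 with a median of 8.60. By the factor's number, 3 of 15 Eif2 genes, 2 of 14 Eif3 genes, 2 of 17 Eif4 genes and 1 of 5 Eif1 genes had a peak, and none of the 4 Eif5 genes or the single Eif6 gene.

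The strongest peaks of this family were those of Eif3f and Eif2b4, which encode a subunit of eIF3 and a subunit of eIF2B. Eif3f (chr7:108934130-108934412), a subunit of the eIF3 scaffold on the small ribosomal subunit, had a pileup of 27 over a background of 1.04 and a fold of 13.7 (9.21 to 19.8), with the summit 162 bp upstream. Eif3d (chr15:77970863-77971145), another eIF3 subunit, had 16 ChIP fragments at the summit, 8.60-fold (5.13 to 13.7) at 210 bp upstream. Eif2b4 (chr5:31193079-31193344) and Eif2b2 (chr12:85201291-85201534) encode subunits of eIF2B, the exchange factor that reloads eIF2 with GTP. Eif2b4 had 25 ChIP fragments at the summit, 13.2-fold (8.69 to 19.2) at 44 bp upstream, between its start and that of Snx17, a neighbour whose end is also within 1000 bp. The peak paired with Eif2b2 was distal, 18074 bp upstream of the start, with 17 ChIP fragments at the summit, 9.10-fold (5.51 to 14.3).

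Eif2ak4 (chr2:118388508-118388773), also called GCN2, is a kinase that phosphorylates eIF2 on amino acid shortage, and it matched the rule by symbol without being an initiation factor subunit. Its peak had 16 ChIP fragments at the summit, 8.60-fold (5.13 to 13.7), with the summit 33 bp downstream of a listed start, the one member summit that lay after the start within 500 bp. Eif1ad (chr19:5366648-5366971), which encodes a protein with a domain like that of eIF1A, had the same number of fragments and the same fold at 41 bp upstream, inside the span of the neighbour Banf1. In the cap-binding branch, the helicase gene Eif4a2 (chr16:23107323-23107538) had 14 ChIP fragments at the summit, 7.59-fold (4.38 to 12.4) at 59 bp upstream. Eif4b (chr15:102073569-102073740), which encodes a cofactor of that helicase, had 10 ChIP fragments at the summit, 5.39-fold (2.84 to 9.51) at 168 bp upstream. No peak was paired with Eif4e, the cap-binding protein gene, whose nearest summit was 36.4 kb away, or with Eif2s1, the alpha subunit of eIF2, at 410.3 kb.

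RNA polymerase genes had a peak in 6 of 28 cases (21.4%, against 9.58%), and 5 of the 28 (17.9%, against 4.10%) had it within 1000 bp of their own end. Counting summits inside the span alone again turned the order, with 1 of 28 (3.57%) against 5.46%. Folds ran from 5.56 to 9.10 with a median of 8.58, and none reached 10. By symbol, 3 of 5 Polr1 genes, 2 of 13 Polr2 genes and 1 of 10 Polr3 genes had a peak, counts too small to order the enzymes.

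Among the polymerase I genes, Polr1b (chr2:129100818-129101014), a core catalytic subunit, had 17 ChIP fragments at the summit, 9.07-fold (5.50 to 14.2) at 104 bp upstream of the listed start. Polr1d (chr5:147076581-147076780), a subunit that polymerases I and III share, had 15 ChIP fragments at the summit, 8.09-fold (4.75 to 13.0). That summit lay 69 bp outside the gene's annotated end but 700 bp upstream of the listed start, and the end of Lnx2 is also within 1000 bp. Polr1e (chr4:45018184-45018502) had 11 ChIP fragments at the summit, 6.05-fold (3.27 to 10.4) at 143 bp upstream. The largest polymerase I subunit gene, Polr1a, had no paired peak and its nearest summit was 64.6 kb away.

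The remaining polymerase peaks stood at genes of polymerases II and III. Polr2a (chr11:69758956-69759256), which encodes the largest subunit of polymerase II, had 17 ChIP fragments at the summit, 9.10-fold (5.51 to 14.3) with the summit 488 bp upstream, the farthest of the summits within 500 bp of a start. The end of the neighbour Slc35g3 lay within 1000 bp of it as well. Polr2j (chr5:136116550-136116739) had the same number of fragments and the same fold at 76 bp upstream. Polr3b (chr10:84710991-84711207), a core subunit of polymerase III, had the single polymerase peak far from a start, within the span at 16094 bp from the nearer end, with 10 ChIP fragments at the summit, 5.56-fold (2.93 to 9.81). Polr3a had no paired peak, although the Rps24 summit lay 3548 bp from its end.

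Positions relative to the start were a measure that the pairing did not fix, apart from the 50 kb limit. Of the 23 members with a summit within 1000 bp of their own end, 21 had a listed start, and in 20 of the 21 (95.2%) the summit was upstream of the nearest listed start. Over all protein-coding genes with such a summit and a listed start, 544 of 753 (72.2%) had it upstream. Counted from the start, 21 of the 133 members with a listed start (15.8%) had a paired summit within 500 bp, against 4.14% of all protein-coding genes with one. These were 10 of 67 ribosomal protein genes (14.9%), 7 of 44 initiation factor genes (15.9%) and 4 of 22 polymerase genes (18.2%). Their summits had a median position 117 bp upstream, and 17 of the 21 (81.0%) fell in the 250 bases before the start, where the median over all 733 such peak-gene pairs was 69 bp upstream and 57.7% fell in those 250 bases. Peaks at least 172 bp wide cannot place a binding site to the base, and RefSeq starts may not be those used in these cells.

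**Figure D2:**
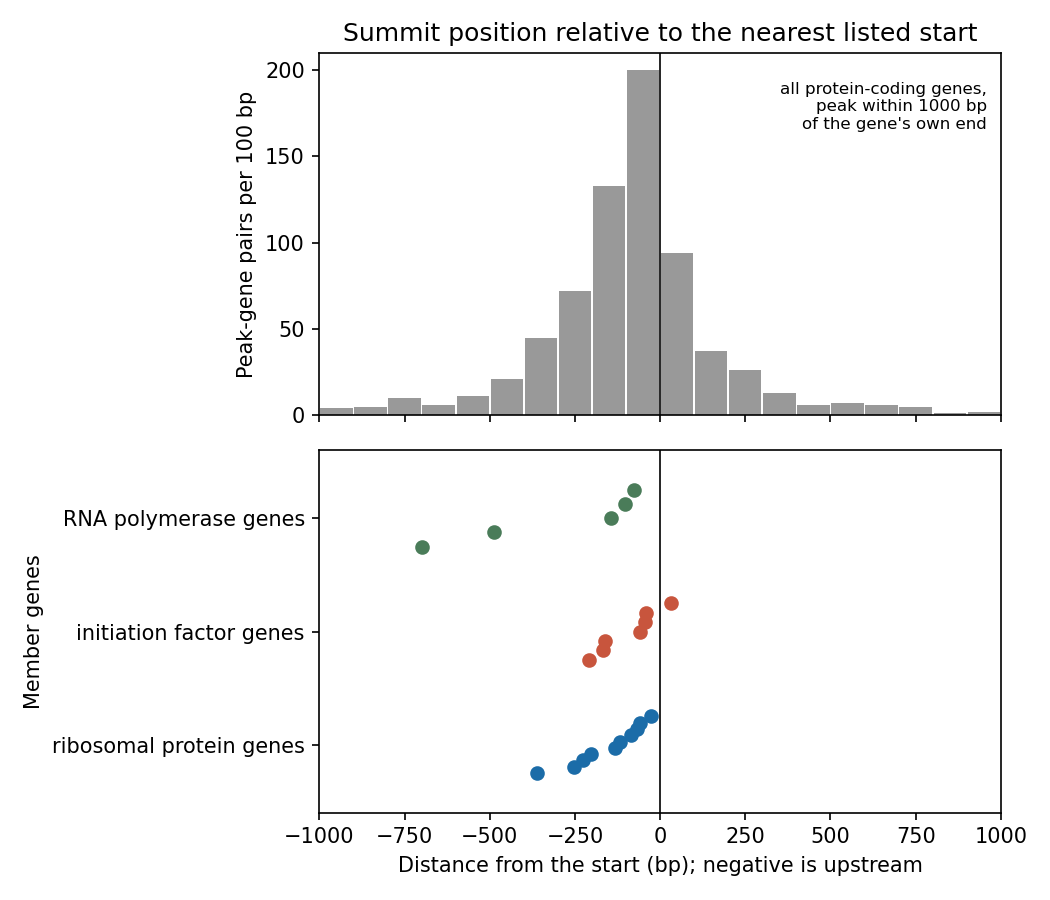
Distance in bp from the nearest listed start to the summit, negative upstream, for all protein-coding genes with a peak within 1000 bp of their own end (upper panel, peak-gene pairs per 100 bp) and for member genes by family (lower panel, 1 point per gene with a summit within 1000 bp of a listed start, spread vertically for visibility). All member points but that of Eif2ak4, 33 bp downstream, lie upstream of the start.

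Shared gene ends were part of this picture. At 6 of the 23 member peaks near a gene end (26.1%), another protein-coding gene had an end within 1000 bp of the summit (Banf1, Snx17, Lnx2, Slc35g3, Iqcg and Clhc1), against 157 of all 867 peaks near a gene end (18.1%). At these 6 peaks the member and its neighbour cannot be told apart as the gene concerned. The same holds for the Rpl18 peak, which also has the end of Sphk2 within 1000 bp. It was not counted here because its own gene end was 2518 bp away. None of the 26 member peaks had another summit within 10 kb, and the closest was 13111 bp away. The same count over all peaks is not given here, so this does not set the member loci apart.

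By strength the member peaks were spread from rank 48 to rank 2874 of the 2975 peaks. At or above the median fold of 7.35 stood 19 of the 26 (73.1%), against 50.7% of all peaks, and at or above the upper quartile of 8.82 stood 10 (38.5%), against 25.2%. Folds of at least 10 were found for 4 of the 26 (15.4%), against 14.5% of all peaks. Their summits held 16 fragments at the median, and their median width was 239.5 bp, where the medians of all peaks were 15 and 230 bp. The background was under 1 fragment at 18 of the 26 (69.2%), against 49.6% of the 2520 peaks paired with any protein-coding gene. Whether this difference accounts for the higher folds was not tested. The highest member background was 1.56, so all member folds rest on small numbers in both libraries.

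Motifs were searched in 1 promoter window of 300 bases per gene, on both strands, as a description of letters. The motif TAATTA of homeodomain proteins was in 0 of the 18 member windows with a summit, in 4 of 115 windows of members without one (3.48%) and in 4.75% of all 17492 protein-coding windows. The motif TAATNNATTA of paired-class homeodomain dimers was in 0 of the 18 and in 0.32% of all windows. GTCACG, a core bound by paired domains, was in 4 of the 18 (22.2%), in 21.7% of the member windows without a summit and in 9.78% of all windows. It is marked in the Rps19 line, 187 bases before the start, and in the Eif3d line, 208 bases before the start on the other strand. The 539 protein-coding windows that held any summit contained GTCACG in 31.5% of cases and TAATTA in 4.27%.

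Motifs of general promoter factors differed in how often they were found. GGGCGG, bound by Sp1, was in 15 of the 18 (83.3%), against 58.3% of member windows without a summit, 73.7% of all windows with a summit and 45.9% of all windows. CCGGAAG, bound by Ets factors, was in 7 of the 18 (38.9%), against 33.9%, 19.7% and 11.8% in the same order. AAGATGG, bound by YY1, was in 4 of the 18 (22.2%), against 8.70%, 6.12% and 6.35%, and TCTCGCGA was in 2 (11.1%), against 10.4%, 4.08% and 1.47%. Within the 250 bases before the start, AAGATGG was matched at Rps7 alone, 243 bases before it. Its other matches reach into the 50 bases after the start, and some genes counted for GGGCGG or CCGGAAG also had no match before the start. CANNTG, the E-box, was in 11 (61.1%), against 54.8%, 60.7% and 69.0%, and CCAAT in 5 (27.8%), against 32.2%, 48.6% and 39.0%. GCATGCGC, bound by NRF1, and TGANTCA, bound by AP-1, were each in 1 of the 18 (5.56%), against 3.57% and 7.05% of all windows. The single TGANTCA match stands in the Eif3f line 73 bases before the start and overlaps an E-box match that begins 68 bases before it, the only overlap of different motifs in the 250 bases before the start of the 18 genes. The median GC content was 56.3% with 22.5 CpG dinucleotides in the 18 windows, 59.3% with 22 in member windows without a summit, 62.0% with 24 in all windows with a summit and 56.3% with 13 in all windows.

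The 145 members without a paired peak included the core members Polr1a, Polr3a, Eif4e, Eif2s1, Rps6 and Rpl11. Rps6 and Rpl11 had their nearest summits 790.9 and 90.4 kb from the gene. A summit within 10 kb of the gene's end was found at 5 members without a paired peak, and in each case another gene end was nearer. Among them were Polr3a (beside Rps24), Eif4a1 (beside Mpdu1), Rps19bp1 (beside Atf4) and Rpl7a (beside Surf6). The distance limit of 50 kb mattered little, because the farthest pair inside it was Eif2b2 at 18074 bp and the only summit beyond it with a member's end as the nearest was 109147 bp from Rps12. None of the 6 members on the X chromosome had a peak, where 1.45% of all its protein-coding genes had one. The median distance from a gene's nearer end to the nearest summit was 134 kb for ribosomal protein genes, 139 kb for initiation factor genes and 151 kb for polymerase genes, against 226 kb for all protein-coding genes. A gene without a peak may still hold signal, since no peak with fewer than 9 fragments was listed.

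**Figure D3:**
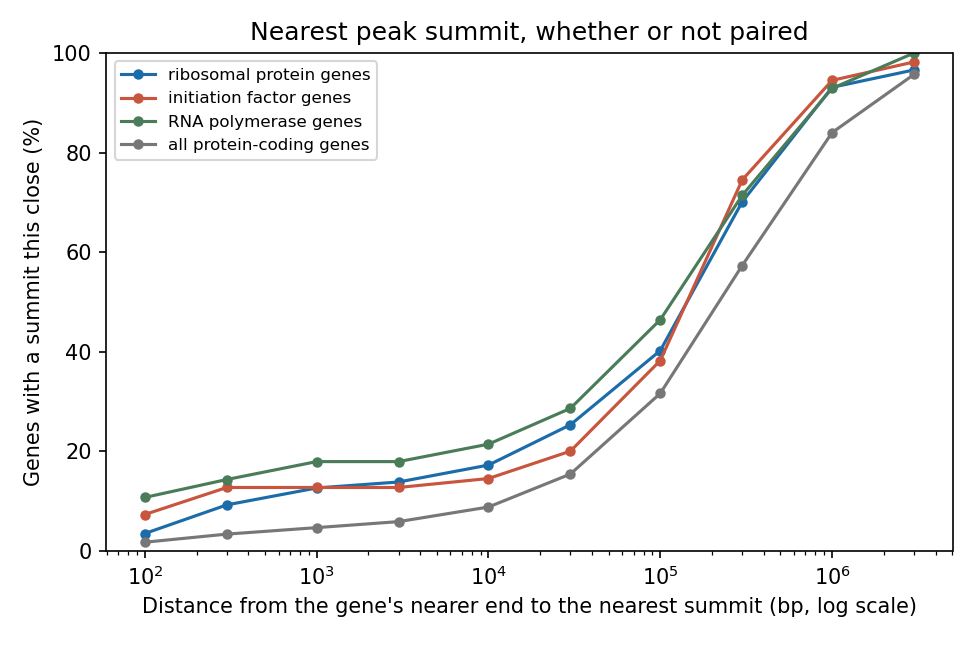
Percentage of genes whose nearer end lies within a given distance of a summit (bp, log axis), for the families and for all protein-coding genes, leaving out chromosome Y, where no peak was called. Within 1000 bp the families stand at 12.6%, 12.7% and 17.9% and all genes at 4.63%, and up to 1000000 bp the family lines stay above the line of all genes.

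Other genes of translation and transcription were counted by the same rule, with the 9.58% of all protein-coding genes as background. Ribosome biogenesis genes had a peak in 9 of 28 cases (32.1%), and 8 of the 28 (28.6%, against 4.10%) had it within 1000 bp of their own end. The strongest were Heatr1, needed for processing and transcription of the rRNA precursor, at 8.79-fold (5.39 to 13.6), Nhp2, a protein of the box H/ACA particles that modify rRNA, at 8.20-fold (4.89 to 13.0), and Wdr12, a factor for the large subunit, at 7.84-fold (4.61 to 12.6). The biogenesis list also held the transcription factor genes Myc and Mycn, and the peak near the end of Mycn is in both of its counts. Genes of cap, tail and mTORC1 control had a peak in 5 of 24 cases (20.8%). Pabpc1, the cytoplasmic poly(A)-binding protein gene, had 2 peaks inside the gene, the stronger at 8.82-fold (5.35 to 13.8), and the kinase genes Rps6ka3 and Rps6ka2 had 1 each at 5.56-fold (2.93 to 9.81).

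Elongation and termination factors had a peak in 2 of 15 cases (13.3%), Eef1g at 7.59-fold (4.38 to 12.4) and Etf1 at 6.58-fold (3.64 to 11.1), and neither was within 1000 bp of the gene. Factors of polymerases I and III had 2 of 23 (8.70%), both within 1000 bp of the gene's own end, against 4.10% of all protein-coding genes. These were Brf1, a subunit of the TFIIIB complex that recruits polymerase III, at 12.3-fold (lower bound 8.03) and Gtf3c2, a TFIIIC subunit, at 7.84-fold (4.61 to 12.6). General factors of polymerase II had 4 of 36 (11.1%), with Gtf2f2, a subunit of TFIIF, at 11.6-fold (7.51 to 17.1), Supt6 at 5.88-fold (3.18 to 10.1) and Taf12 at 5.08-fold (2.81 to 8.58). None of the 4 genes of the mitochondrial polymerase had one.

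**Figure D4:**
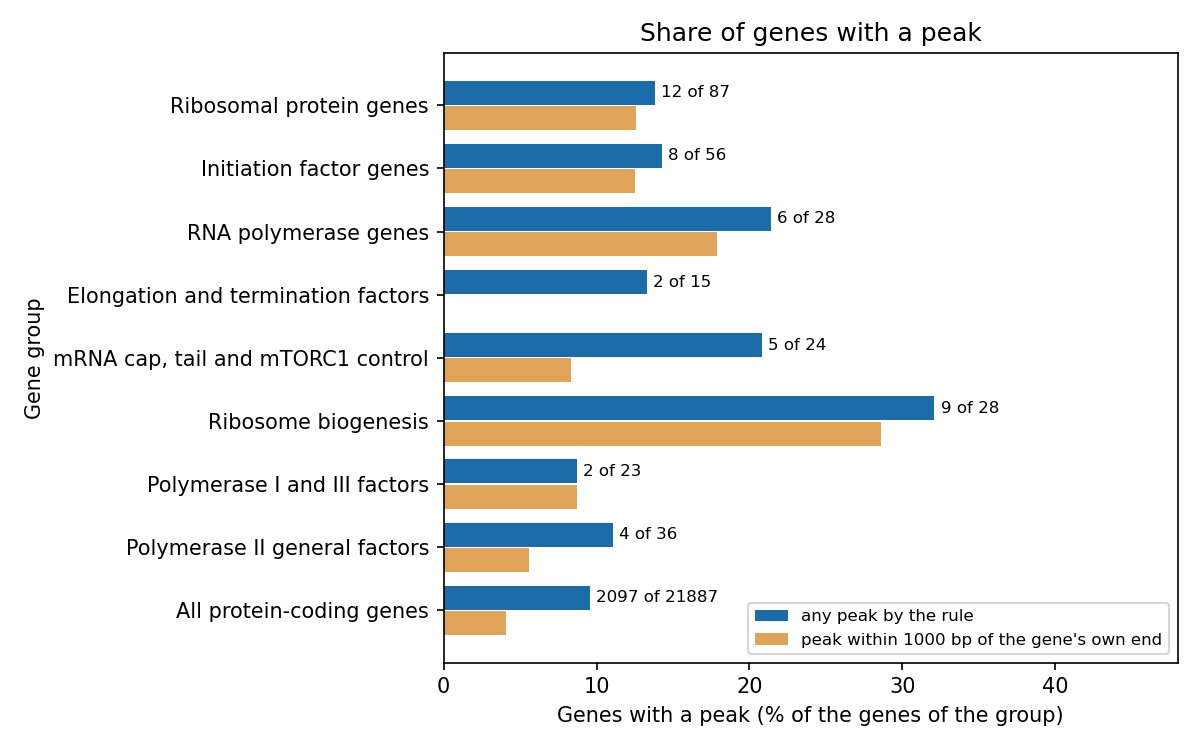
Percentage of genes with any peak by the pairing rule (blue, with the counts) and with a peak within 1000 bp of their own end (orange), for the member families, related gene lists and all protein-coding genes. The member families stand between 13.8% and 21.4% for any peak and all genes at 9.58%.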

How the data were processed

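Peaks were called by the authors with MACS 2.1.1.20160309 on 1 ChIP library against 1 input library, and kept when their q-value was at most 0.01, as stated per the file headers. GRCm38, bcl2fastq, HISAT2 and MACS2 are named in the submitters' processing notes without role or order. How reads that fit several gene copies were placed is not given in the sources used here. The deposited pileup is a coverage signal (ChIP fragments over the summit), and the deposited fold enrichment is a ratio of pileup + 1 to local background + 1, with the input scaled by 0.5199. The deposited −log10 q-values come from the caller's Poisson test.

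Backgrounds were recovered from fold and pileup, and their floor was 0.977. For peaks at that value the background does not give the local input level. Genes came from the RefSeq table of GRCm38.p6, starts, strands and sequences from its promoter table. The pairing was tested on 200 summits placed at known genes. Analysis used Python 3.11.15, pandas 2.3.3 and scipy 1.17.1. No test between groups was possible with 1 library each. Members with a peak were named, with 6 core members without one and up to 3 genes of each related list. The members and lists were chosen with earlier results of these data known. Some single-gene values are not reported here, and counts include those genes. The members near unpaired summits, and Rps12, were named after their values were seen. The alternatives were a stricter q, leaving out the highest pileups or backgrounds, other pairing rules and windows, and a list without genes that match only by symbol.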

Additional observations from a re-analysis of the deposited data

How the results depend on the processing

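Counts of genes with a peak moved by over 1.5 times under 1 of the 9 alternatives. With summits inside the span only, 3 ribosomal protein genes, 1 initiation factor gene and 1 polymerase gene had a peak, 5 members in all (2.92%), below the 5.46% of all protein-coding genes, so the direction turned for the members and for each family. The other alternatives left each count within 1.5 times and each share above that of all protein-coding genes, which for the list without symbol-only matches was the 9.58% of all genes. Leaving out the highest pileups, or backgrounds of 3 or more, could not change a member count. The highest member pileup was 28, under the 99th percentile of 41.24, and the highest member background was 1.56. When only peaks in the upper part of the list by −log10 q (its median or more) were kept, 8, 7 and 4 genes of the families had a peak, 19 in all (11.1%, against 5.20% of all protein-coding genes), 18 of them within 1000 bp of their own end. Without genes that match only by symbol, such as Eif2ak4 and Eif1ad, 24 of 144 members had a peak. Median folds could not move under their alternatives, because no member had more than 1 peak and no member peak was among those left out. No replicate could be left out. Pileups of 9 to 28 fragments limit the order of the members.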

Other observations

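Ribosomal protein genes have many processed copies in the mouse genome, and the gene table held 323 pseudogenes whose symbols match the families. None of the 323 had a summit inside it or within 1000 bp of it, and of all 10609 annotated pseudogenes 16 did (0.151%), so a count of 0 does not set these copies apart.

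Many ribosomal protein and initiation factor genes carry small nucleolar RNA genes in their spans. Of the 26 members with a peak, 2 (Rpl13a and Eif4a2) held an annotated snoRNA gene, and of the 145 members without a peak 34 did. Among ribosomal protein genes alone the counts were 1 of 12 and 27 of 75. On chromosome 7, which held the most members, 6 of 20 had a peak (30.0%), against 7.04% of all its protein-coding genes, and on chromosome 11 it was 4 of 13 (30.8%), against 9.94%. Chromosomes 7 and 11 were chosen after the counts were seen. Chromosomes 5 and 15 also held 13 members each, and 23.1% and 15.4% of these had a peak, against 10.9% and 10.3%. No member had a peak on chromosomes 1, 3, 6, 8, 9, 17 and 18, where 8.69% to 14.0% of all genes had one.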
